A study of Sus scrofa with 3 samples.

Results

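miR-22 was read from small RNA libraries of pig psoas major muscle, a postural muscle of the loin. Its members were all rows of the deposited miRNA files whose name carries the number 22 under any species prefix and on either arm. There were 23 such rows of 4461, namely 7 of 1302 at 63 d, 7 of 1648 at 98 d and 9 of 1511 at 161 d. They carried 3 of the 1162 known names in the files: aja-miR-22, ssc-miR-22-3p and ssc-miR-22-5p. The prefix ssc stands for the pig and aja for the bat Artibeus jamaicensis, and both come from miRBase, the registry of miRNA sequences.

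The pigs were castrated hybrid males (Landrace × Large White × Duroc) in the fattening period, housed alike and fed diets set by stage of weight, so that diet changed along with age. Each age, 63, 98 or 161 d, had 1 library, made from pooled RNA of several pigs. The study compared the ages to follow miRNAs while muscle fibre types change. The spread between single pigs was therefore not seen, no test of ages was possible, and all intervals given here cover counting error only and compare libraries.

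A miRNA is cut from an RNA hairpin, and either arm of the hairpin can be kept as the mature strand, called 5p or 3p by its place. The mature strand guides Argonaute proteins to mRNAs, mostly through its bases 2 to 8, the seed, and lowers their translation or stability. miR-22 is conserved across vertebrates and is known as an abundant miRNA of cardiac and skeletal muscle, where the 3p arm is the dominant strand.

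The sequences below show that the porcine and the bat name stand for 1 miRNA, with the seed in capitals and U written as T as in the files. aja-miR-22 and ssc-miR-22-3p had the same known mature sequence, so that the 2 names were summed as the 3p arm.
miR-22 3p: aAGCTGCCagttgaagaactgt
miR-22 5p: aGTTCTTCagtggcaagcttta
Both arms were 22 nt long and lay in the listed hairpin aja-mir-22 of 95 nt, printed next with the arms in capitals, the 5p arm first.
aja-mir-22: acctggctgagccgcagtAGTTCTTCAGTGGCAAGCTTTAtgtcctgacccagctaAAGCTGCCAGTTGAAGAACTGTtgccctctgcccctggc
The porcine hairpin ssc-mir-22, 80 nt long, was identical to bases 9 to 88 of it. In the deposited fold, 19 of the 22 bases of the 5p arm were paired to bases of the 3p arm, and the 7 seed bases of each arm were all paired. The free energy of the fold was -41.4 kcal/mol.

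The files name a row after the first known miRNA of its cluster, a group of 9 to 11 known hairpins here. In all 3 libraries nearly every 3p read stood in 1 row named aja-miR-22, which held 48245, 67966 and 91477 reads in the order of age. The porcine name ssc-miR-22-3p held 15, 16 and 36 reads, which was 0.0311%, 0.0235% and 0.0393% of the 3p reads (95% exact binomial intervals 0.0174 to 0.0513, 0.0135 to 0.0382 and 0.0276 to 0.0545). A search under porcine names alone thus met less than 0.0545% of the arm, at the upper bound of the 161 d library.

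The rows of aja-miR-22 and ssc-miR-22-5p belonged to the class of reads that matched a mammalian hairpin in miRBase while neither the hairpin nor the read matched the pig genome used by the authors. That class had 222, 280 and 241 rows at 63, 98 and 161 d and held 4.91%, 4% and 5.04% of the reads in the files. miR-22 supplied 67.4%, 71.0% and 81.3% of its reads and ranked 1 in it in each library.

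The 3p arm was among the most abundant miRNAs of the muscle in all 3 libraries. Levels are given as RPM, reads per 1000000 reads listed in the deposited file of the library, which held 1464699, 2418187 and 2242716 reads at 63, 98 and 161 d. At 63 d the 3p arm had 48260 reads, or 32949 RPM (95% exact Poisson interval 32655 to 33244). At 98 d it had 67982 reads, or 28113 RPM (27902 to 28325). At 161 d it had 91513 reads, or 40805 RPM (40541 to 41070). By file totals the 98 d library was the lowest and the 161 d library the highest, and the 3 counting intervals did not overlap.

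In order of level the 3p arm was number 6, 8 and 5 of 980 known names at 63, 98 and 161 d, with species prefixes removed. At 63 d it stood between miR-26a (35532 RPM) and miR-10b (26630 RPM). At 98 d, by sums over all rows of a name, it stood between miR-378 (30291 RPM) and let-7f (25278 RPM). At 161 d miR-10b (40837 RPM) was next above it and let-7a (28465 RPM) next below. The level of miR-10b at 161 d lay within the counting interval of miR-22, as did that of miR-486 (40909 RPM), so that these 3 could not be put in order there. The other neighbours lay outside it. Names listed at several hairpins were summed over all their rows, and the places and neighbours may depend on this sum. At 161 d let-7a stood above miR-1 (21276 RPM) by these sums, but below it in the paper's normalised counts. With 1 row per name the files held 1019890, 1784616 and 1609782 reads at 63, 98 and 161 d. The order of names under that setting was not computed.

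The 5p arm, the less abundant strand, was listed under ssc-miR-22-5p alone, in 1 row per library. It had 226 reads at 63 d, or 154 RPM (95% exact Poisson interval 135 to 176). It had 671 reads at 98 d, or 277 RPM (257 to 299). It had 446 reads at 161 d, or 199 RPM (181 to 218). Here the 98 d library was the highest and the 63 d library the lowest, without overlap of the intervals. The arm was number 180, 144 and 152 of 981 names. All 3 values lay far above 3 reads, taken as the smallest detectable amount, which was 2.05, 1.24 and 1.34 RPM.

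**Figure D1:**
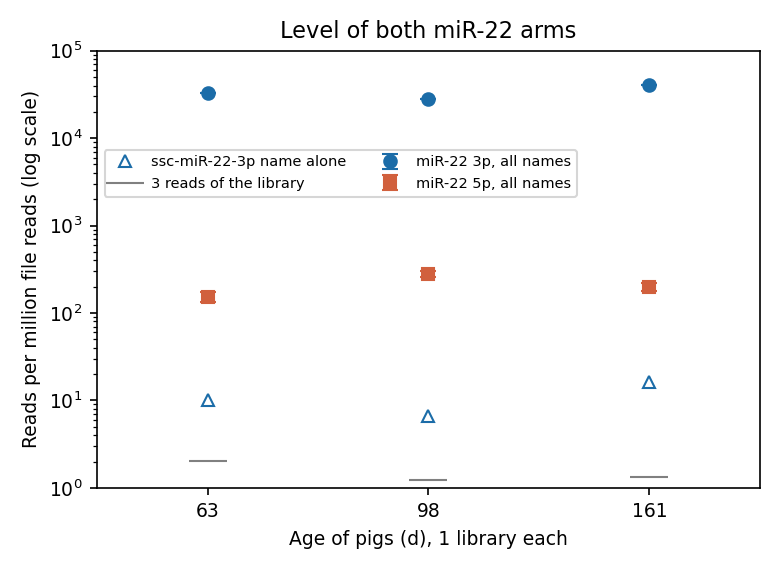
Level of both miR-22 arms in RPM on a log scale in the 63, 98 and 161 d libraries, with 95% exact Poisson intervals as bars, the name ssc-miR-22-3p alone as open triangles and the level of 3 reads as grey lines. The 3p arm sits between 28113 and 40805 RPM, the 5p arm between 154 and 277 RPM, and the porcine 3p name between 6.62 and 16.1 RPM.

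Between 63 and 98 d the level of the 3p arm fell to 0.853 of its value (95% Clopper-Pearson interval 0.843 to 0.863) by file totals, whereas scaling to the clean reads of each library turned the direction, with a ratio of 1.25 (1.24 to 1.27). From 98 to 161 d the ratio was 1.45 (1.44 to 1.47), and from 63 to 161 d it was 1.24 (1.22 to 1.25). For the 5p arm the same 3 ratios were 1.80 (1.54 to 2.10), 0.717 (0.634 to 0.809) and 1.29 (1.10 to 1.52). By file totals the arms thus moved in opposite directions in both intervals of age.

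None of these 6 ratios was past the fold of the study, that is above 2 or below 0.5. Over all known names with at least 20 reads in the 2 libraries together, 18.2% were past it from 63 to 98 d (84 of 462), 18.7% from 98 to 161 d (89 of 477) and 28.6% from 63 to 161 d (131 of 458). The scaling moved the direction of these calls. Of the names past the fold from 63 to 98 d, 65.5% were above 2 by file totals, and over the other scalings this share ran from 47.7% with the median of ratios to 92.9% with clean reads. From 98 to 161 d it was 21.3%, and from 11% with clean reads to 45.9% with the median of ratios. From 63 to 161 d it was 35.9%, and from 34.1% with the total at 1 row per name to 58.1% with clean reads. A lower ratio than that of the 3p arm was found for 31.6%, 91.2% and 69.0% of the names in the 3 pairs, and than that of the 5p arm for 81.2%, 38.2% and 71.8%.

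File totals shifted all names together, with median ratios of 1.14 and 0.814 in the first and the second interval of age and 0.911 over both. Divided by that median, the 3p arm had ratios of 0.750, 1.78 and 1.36, and the 5p arm had 1.58, 0.880 and 1.41. These quotients hold no choice of scaling, since a scaling multiplies all names of a pair by 1 factor, and their sameness across scalings is no sign of stability. The authors' scaling factors, taken as the ratio of their normalised to their raw values, gave the 3p arm 0.786, 1.81 and 1.42 and the 5p arm 1.66, 0.891 and 1.48. The interval of the 5p ratio from 98 to 161 d included 1 with these factors (0.789 to 1.01) and with the median of ratios (0.808 to 1.03).

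**Figure D2:**
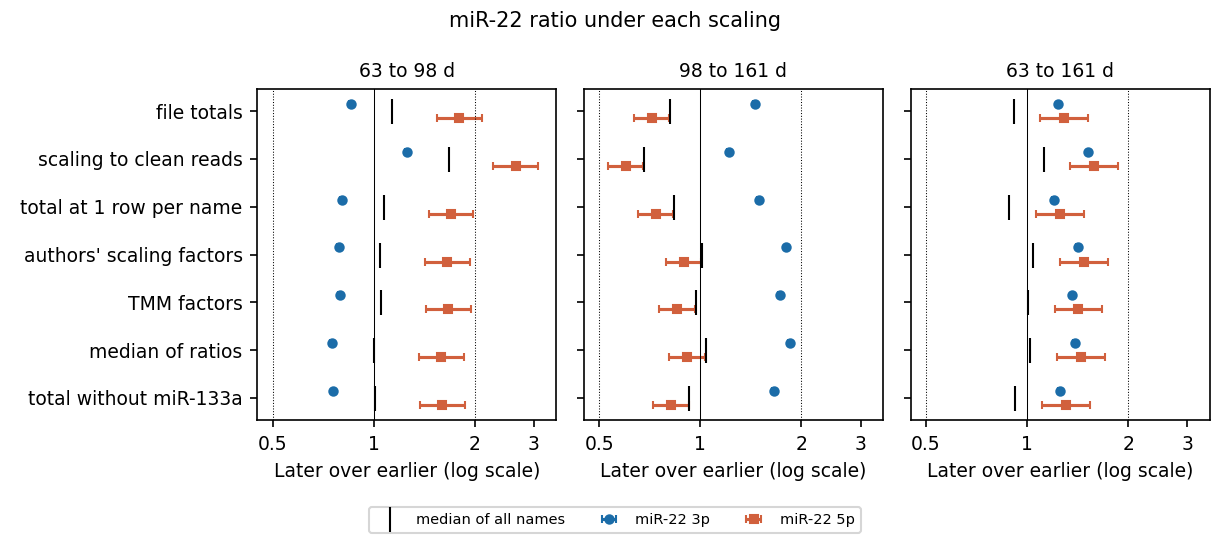
Ratio of the later to the earlier library for the 3p arm (circles) and the 5p arm (squares) under 7 scalings, on a log axis, with 95% Clopper-Pearson intervals as bars and the median over all names as black ticks. Only the 5p arm from 63 to 98 d with clean reads, at 2.65, lies past the dotted lines at 0.5 and 2. A scaling shifts both arms and the median of a panel by the same factor.

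The balance of the arms within a library needs no scaling. The 5p arm held 0.466% of the reads of both arms at 63 d, with a 95% exact binomial interval of 0.407 to 0.531. Its share was 0.977% (0.905 to 1.05) in the 98 d library and 0.485% (0.441 to 0.532) in the 161 d library. There were 214, 101 and 205 reads of 3p for each read of 5p. The 98 d library stood apart from the other two, whose intervals overlapped. The odds of 5p were 2.11 times higher at 98 d than at 63 d (95% exact conditional interval 1.81 to 2.46), and at 161 d they were 0.494 of those at 98 d (0.437 to 0.558). Between 63 and 161 d the odds ratio was 1.04 (0.885 to 1.23), an interval that includes 1.

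The odds of the less abundant arm could be followed for hairpins listed in both libraries with at least 20 reads of each arm, 129 of them from 63 to 98 d, and for 15.5% of them they changed by more than 2-fold, in 6.98% upwards as for miR-22. From 98 to 161 d 12.8% of 141 hairpins passed, in 5.67% downwards as for miR-22. From 63 to 161 d 19.2% of 125 hairpins passed, and miR-22 did not. The counting interval of miR-22 included 2 in the first pair (1.81 to 2.46) and 0.5 in the second (0.437 to 0.558). Hairpins were counted by sequence and position, so that a miRNA with several hairpins can enter more than once. The median odds ratio over the hairpins was 0.922, 1.03 and 1.02. A lower odds ratio than that of miR-22 was found for 94.6%, 4.96% and 52.8% of the hairpins. The share of the less abundant arm over hairpins with at least 1000 reads had a median of 0.772% at 63 d, 0.717% at 98 d and 0.845% at 161 d, so that miR-22 was below the median at 63 and 161 d and above it at 98 d.

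**Figure D3:**
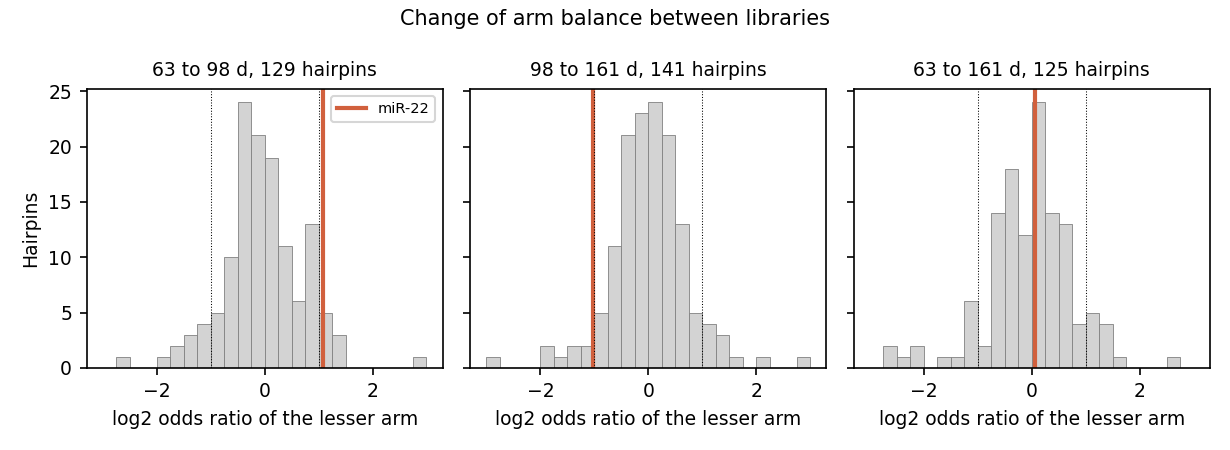
Histograms of the log2 odds ratio of the less abundant arm between libraries for 129, 141 and 125 hairpins, with miR-22 as the orange line and dotted lines at a 2-fold change. miR-22 lies just past 2-fold upwards from 63 to 98 d (odds ratio 2.11), just past 2-fold downwards from 98 to 161 d (0.494) and near no change from 63 to 161 d (1.04).

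Small RNAs that mark other cell types were not at equal levels in the 3 libraries, and none of the listed markers was at 0. At 98 d, where the 5p arm was highest, the summed markers of red blood cells (miR-451 and miR-144) were 1585 RPM against 860 at 63 d and 1145 at 161 d. Those of other blood cells (miR-142, miR-223 and miR-150) were 1698 RPM against 1221 and 1160. The endothelial miR-126 was 9770 RPM against 5835 and 6761, the nerve markers miR-124 and miR-9 were 8155 against 4290 and 6891, and the liver miRNA miR-122 was 123 against 7.51 and 5.35. Not every name of these markers was highest at 98 d. miR-124a was higher at 161 d than at 98 d (log2 ratio 0.202), and miR-150 was nearly unchanged from 63 to 98 d (-0.0019). miR-451, miR-144, miR-142-3p, miR-223, miR-126-3p and miR-9 were each highest at 98 d by file totals. By file totals the median ratio over all names was itself 1.14 and then 0.814. From 98 to 161 d miR-223 (log2 ratio -0.134) and miR-9 (-0.257) fell by less than that median (-0.296). The markers were not computed under other scalings. At 161 d, where the 3p arm was highest, the smooth muscle markers miR-143 and miR-145 were 27273 RPM against 9415 at 63 d and 11874 at 98 d. Of their names, miR-145-5p was lower at 98 d (372 RPM) than at 63 d (464 RPM) and highest at 161 d (688 RPM). The 6 skeletal muscle markers summed to 449879, 400531 and 465552 RPM. Most of this sum was miR-133a-3p, at 432681, 361663 and 439710 RPM. The others, miR-1, miR-133b, miR-206, miR-208b and miR-499-5p, were each highest at 98 d by file totals. The part of these differences in the values of miR-22 was not tested, and in bulk RNA fewer cells of a type and less RNA per cell cannot be told apart.

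Reads that differ from the reference by a mapping error were less frequent for miR-22 than among the pooled reads of all known miRNAs. They were 10.9% of the 3p reads in the 63 d library, with a 95% exact binomial interval of 10.7 to 11.2. The share was 11.2% (11 to 11.48) in the 98 d library and 10.5% (10.3 to 10.7) in the 161 d library. For the 5p arm the shares were 8.85% (5.49 to 13.3), 9.69% (7.56 to 12.2) and 10.8% (8.04 to 14.02). Over the pooled reads of all known names they were 17.1%, 18.4% and 17.5%, above the upper bound of both arms in every library. This pooled share weighs each name by its reads, and miR-133a-3p had the largest part of them (432681, 361663 and 439710 RPM). The spread of the share over single names is not given here.

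The arms differed more in how far a single sequence made up the reads. The full mature sequence of the 3p arm had 41918, 58405 and 79684 copies at 63, 98 and 161 d, which was 86.9%, 85.9% and 87.1% of the reads in its row. The mature sequence of the 5p arm had 116, 359 and 196 copies, or 51.3% (44.6 to 58.0), 53.5% (49.7 to 57.3) and 43.95% (39.3 to 48.7). The remaining reads were other isoforms of the arm, longer, shorter or with a changed base.

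The rows named ssc-miR-22-3p were short reads placed in the genome. There were 5, 5 and 7 such rows with reads of 18 to 20 nt, in the class in which the read matches the genome, the hairpin does not, and the surrounding sequence may not fold into a hairpin. All 15, 16 and 36 reads carried a mapping error. In each of the 17 rows the representative read differed from the genome at 1 base. In 7 of these rows the read was an exact piece of the mature 3p sequence, and in the other 10 it differed from it at 1 base.

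The reads fell in 10 genome windows, of which 2 were listed in all 3 libraries, 3 in 2 libraries and 5 in 1. A pair of the positions, 203203197 to 203203232 and 203203198 to 203203233, lay 1 base apart. Build and chromosome of these positions are not given in the sources used here, so that their annotation was not analysed here. Start and end are those of the genome window listed around the read, which is longer than the read. For the 2 windows found in every library at the same start and end, the read and the genome bases under it are shown. The seed part is in capitals, and substitutions are counted from base 1 of the mature 3p sequence.
Read within 106476 to 106579, minus strand: GCTGCCagttgaagaactgt
Genome bases under this read: GCTGCCagatgaagaactgt
Read within 12273642 to 12273677, minus strand: aAGCTGCCagctgaagaac
Genome bases under this read: aAGCTGCCagctgaacaac
The first read, with 6, 2 and 4 reads at 63, 98 and 161 d, lacked the 2 leading bases of the mature sequence and had no substitution from it, whereas the genome had T11A. The window of 104 nt around it had a free energy of -35.2 kcal/mol. The second read, with 3, 4 and 6 reads, carried T11C, and the genome carried T11C and G16C. Its window of 36 nt had -6.4 kcal/mol. At the remaining positions the free energy was between -2.1 and -20.5 kcal/mol, against -41.4 for the miR-22 hairpin.

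By this porcine name alone the level was 10.2, 6.62 and 16.1 RPM at 63, 98 and 161 d. The ratio of 98 d over 63 d was 0.646, with a 95% Clopper-Pearson interval of 0.299 to 1.40. It was 2.43 (1.31 to 4.68) for 161 d over 98 d and 1.57 (0.837 to 3.08) for 161 d over 63 d. The ratio of 161 d over 98 d was past the fold, as for 3.98% of all names that were above 2 in that pair, but its interval included the value of 1.45 for the whole arm.

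Among the miRNAs with a known role in muscle, the list of miR-1, miR-133a-3p, miR-133b, miR-206, miR-208b, miR-486, miR-499-5p and miR-378, all 8 passed the minimum of reads. By file totals 2 of the 8 were above 2 from 63 to 98 d, against 11.9% of all names. These were miR-1, a muscle miRNA that acts on HDAC4, at 12388, 31677 and 21276 RPM in the 63, 98 and 161 d libraries (ratio 2.56), and miR-208b, encoded in a myosin heavy chain gene of slow fibres, at 535, 1136 and 822 RPM (2.12). miR-1 was above 2 under all 7 scalings, whereas miR-208b was at 1.96 with the authors' factors, 1.97 with TMM, 1.87 with the median of ratios and 1.89 without miR-133a in the total. With clean reads 4 of the 8 were above 2, as were 170 of all 462 names under that scaling. By file totals 1 of the 8 was below 0.5 from 98 to 161 d, against 14.7% of all names. It was miR-206, found in skeletal muscle, at 1897, 2717 and 1321 RPM (0.486). Its ratio was 0.604 with the authors' factors, 0.578 with TMM, 0.619 with the median of ratios and 0.554 without miR-133a in the total, so that none of the 8 was below 0.5 there. Of all 477 names, 40, 47, 40 and 55 were below 0.5 under these scalings, in the same order. From 63 to 161 d none of the 8 was past the fold by file totals, while miR-1 was at 2.11 with clean reads and miR-378 at 0.497 with the total at 1 row per name. Over all 458 names in that pair, 72 were above 2 with clean reads and 89 were below 0.5 with the total at 1 row per name. The median ratio of the list was 1.32, 0.796 and 1.03 beside 1.14, 0.814 and 0.911 over all names. The value of the miR-22 5p arm was highest at 98 d under all 7 scalings, as were miR-1, miR-206, miR-208b and miR-499-5p of the list, and miR-133b under 4 of the 7. By file totals the median ratio over all names had the same directions, 1.14 and then 0.814, so that this order was not particular to them. For the 5p arm the interval of the ratio from 98 to 161 d included 1 under the authors' factors and the median of ratios, so that 98 and 161 d could not be put in order there. The 3p arm was lowest at 98 d under 6 of the 7 scalings, all but clean reads, as were miR-133a-3p and miR-486, and miR-378 under 4 of the 7. The share of all names that were highest or lowest at 98 d was not counted.

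**Figure D4:**
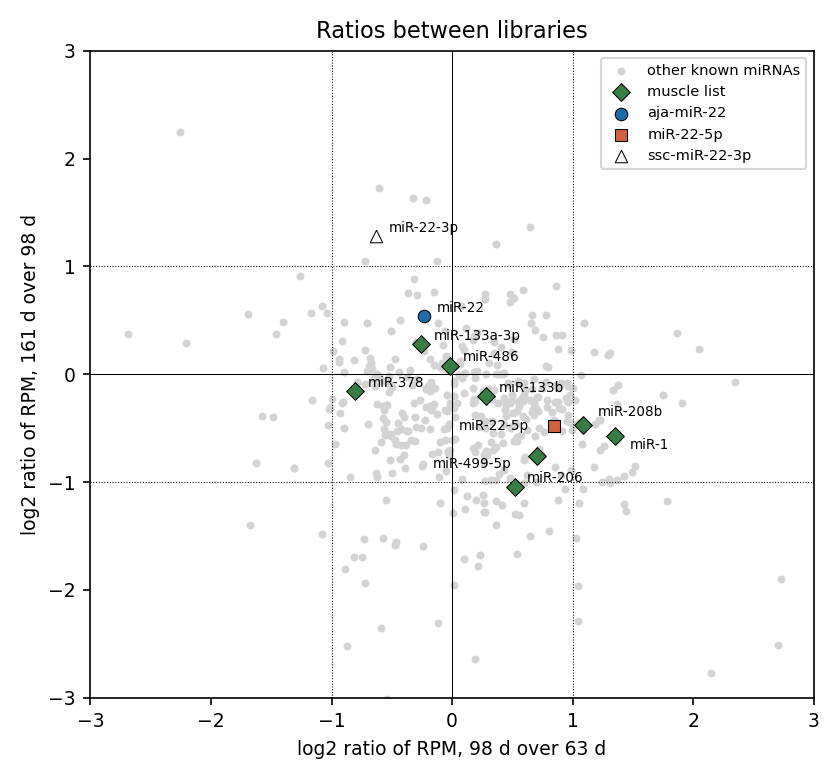
Log2 ratio of RPM from 63 to 98 d against that from 98 to 161 d for 453 known names with at least 20 reads in both pairs, of which 19 lie beyond the axes, with dotted lines at a 2-fold change. The rows of aja-miR-22 lie up and left of the centre near miR-133a-3p, miR-22-5p lies down and right among miR-1, miR-208b and miR-499-5p, and the name ssc-miR-22-3p lies above the upper dotted line.

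The 5 names with the most similar pair of ratios to the 3p arm were sought among 220 names with at least 100 reads in each library, by the Euclidean distance of the log2 ratios in the first and the second interval of age. They were miR-133a (distance 0.25), miR-133a-3p (0.257), miR-181a (0.314), miR-1307-5p (0.357) and miR-145-5p (0.360). miR-133a-3p, a muscle miRNA, had 432681, 361663 and 439710 RPM and thus made up a large share of each library. miR-181a had 18408, 12923 and 17019 RPM. The 5p arm of miR-22 was number 187 of the 220 in this order, at a distance of 1.48 against a median of 1.10. With 3 libraries the likeness rests on 2 ratios and is a description.

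One other known miRNA had the seed of a miR-22 arm. mmu-miR-3966, a mouse name, had 1 read at 63 d and 1 at 98 d and was not listed at 161 d. Its read is shown beside the 3p arm, from which it differed by A1C and T11C.
mmu-miR-3966: cAGCTGCCagctgaagaactgt
miR-22 3p: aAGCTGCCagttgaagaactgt
Both counts were under 3 reads.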

How the data were processed

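Total RNA of several pigs per age was pooled into 1 TruSeq small RNA library and sequenced on an Illumina HiSeq. The authors filtered and mapped the reads with ACGT101-miR 4.2 to miRBase 20.0 and to the pig genome, whose build is not given in the sources used here. The deposited files hold expected counts per arm, summed over isoforms and with reads shared by several hairpins split among these, in total and by the absence or presence of mapping errors. They also hold counts of the copies of each representative read. Neither was normalised by the authors. The 98 and 161 d files have a header joined to the line above it, which was corrected for, and in every row reads without and with errors summed to all reads.

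Expected counts were rounded to whole numbers for intervals. Libraries were grouped by title. RPM used the total of each file over all rows (1464699, 2418187 and 2242716 reads). A floor of 3 counts was used. Ratios were taken without a pseudocount over known names without species prefix with at least 20 reads in the pair. Predicted candidates were left out, because their names differ between files. With 1 library per age no p-value was computed. Alternatives were other rows, reads, totals and scalings (edgeR 4.0.16 TMM, DESeq2 1.42.0 median of ratios, the authors' factors and clean reads from their supplement). The ratio and its interval were tested on simulated data with 200 changed miRNAs. Named were all member rows, the muscle list, other known miRNAs with the seed of an arm, and the 5 nearest patterns. Neighbours in rank were named after their values were seen. Members and lists were chosen with earlier results of these data known. Scripts ran in R 4.3.3 and Python 3.11.15 (scipy 1.17.1, pandas 2.3.3, numpy 2.4.6, matplotlib 3.10.9).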

Additional observations from a re-analysis of the deposited data

How the results depend on the processing

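Of 117 values under alternative settings, 67 stayed within the counting interval of the reported value (or, for counts of names, within 1.5 times of it), 49 moved and 1 reversed. Part of the 67 could not have moved. The 5p arm had 1 row per library, with a porcine name, so the row with most reads and porcine names only left its values as they were. For the 3p arm the row with most reads held all but 0.0311%, 0.0235% and 0.0393% of the reads. The reversal was the 3p ratio from 63 to 98 d, at 1.255 when scaled to clean reads. From 63 to 98, 98 to 161 and 63 to 161 d the 3p ratio was 1.213 and 1.522 with clean reads in the second and the third pair, 0.805, 1.492 and 1.201 with the total at 1 row per name, 0.7862, 1.805 and 1.419 with the authors' factors, 0.7912, 1.725 and 1.365 with TMM, and 0.7523, 1.848 and 1.39 with the median of ratios. It was 0.7578, 1.654 and 1.253 with the total without miR-133a, a setting chosen after seeing the data, and 0.6461, 2.426 and 1.567 with porcine names only. The 5p ratio was 2.646, 0.5987 and 1.584 with clean reads, and from 98 to 161 d 0.8911 with the authors' factors, 0.8518 with TMM, 0.9127 with the median of ratios and 0.8167 without miR-133a.

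At 63, 98 and 161 d the 3p level was 29347, 24953 and 36534 RPM with reads without mapping error, 11756, 14758 and 17895 per 1000000 clean reads, 47319, 38093 and 56848 with the total at 1 row per name, and 10.24, 6.617 and 16.05 with porcine names only. The 5p level was 55.05, 145.7 and 87.21 per 1000000 clean reads and 221.6, 376 and 277.1 with the total at 1 row per name, and at 98 and 161 d it was 250.6 and 177.5 with reads without mapping error. The number of names past the fold without a minimum of reads was 134 from 63 to 98 d and 138 from 98 to 161 d. The arm balance, its odds ratios and the shares of reads with errors stayed within their counting intervals with the row of most reads. That row held nearly all reads of each arm, so this setting could hardly move them. The first 2 also stayed within their intervals with reads without mapping error.

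Each age had 1 pooled library, so that the spread between pigs, and with it a test of ages, is missing, and the intervals cover counting error only. The scaling sets the size of the 3p ratios and in 1 pair their direction, while the arm balance does not depend on it. No paired analysis was possible because each age had 1 library. The ratios of the muscle list under other scalings were also computed after seeing the data.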
